A study of Homo sapiens with 11 samples.

Results

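NSD2, DOT1L, KMT2A, BMI1, SATB1 and JMJD1C encode regulators of chromatin that have been studied in leukaemia, and their RNAs were examined for occupancy by ZFP36L2. The members were all rows of the deposited tables of peaks over input whose gene name equals 1 of these 6 symbols. Each of the 6 had at least 1 row in at least 1 library, while KMT2A had no row in MOLM13 under its own name alone. The members gave 140 of 67083 peaks and 6 of the 6881 gene names in the tables. Peaks of 1 gene that overlapped or touched on the same strand, taken over all libraries, were joined into a site, which gave 38 of 20181 sites.

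Binding was measured by eCLIP, a method that fixes proteins to the RNA they touch with ultraviolet light, pulls 1 protein down with an antibody and sequences the RNA fragments held by it. The immunoprecipitates were made with an antibody to ZFP36L2 from MOLM13 and from THP1, established human lines of acute myeloid leukaemia that both carry a fusion of KMT2A. Each line had 2 ZFP36L2 immunoprecipitates and 2 control IgG libraries, with 2 size-matched input libraries for MOLM13 and 1 for THP1. The labels give no treatment for any group and name no separate cultures for the duplicates, so the spread between them may be technical.

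ZFP36L2 belongs to the TIS11 family of zinc finger proteins, which bind AU-rich stretches of 3' UTRs and recruit the machinery that shortens the poly(A) tail, so that the mRNA decays. Fusions of KMT2A join the 5' part of this histone H3 lysine 4 methyltransferase to a partner such as MLLT3, and the fusion protein drives leukaemic transcription through DOT1L, the histone H3 lysine 79 methyltransferase. NSD2 methylates histone H3 lysine 36, BMI1 is a core subunit of Polycomb repressive complex 1, SATB1 is a DNA-binding organiser of chromatin, and JMJD1C is a member of the JmjC histone demethylase family.

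Log2 folds and −log10 p per peak are the authors' own values. A fold is that of the ZFP36L2 immunoprecipitate over input or over IgG, and the tables over input list only peaks with a log2 fold and a −log10 p of at least 3. The same pair of thresholds is used here for enrichment over IgG, for the same peaks. A site takes the values of its peak with the highest fold over input in each library. Positions are on hg38 and count from 1, and sites of a gene are numbered from its 5' end. The read depth behind a value is unknown. Folds of MOLM13 and THP1 rest on different inputs, and no difference between the lines was tested.

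The 4 libraries listed 140287, 182486, 153162 and 143910 clusters for MOLM13 replicates 1 and 2 and THP1 replicates 1 and 2. Of the myeloid markers, 8 of 10 had clusters in each library. CD14 had none in any, ITGAM none in MOLM13 and MPO none in THP1. None of the 3 erythroid and 3 epithelial markers had a cluster in any of the 4 libraries.

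RNA of all 6 genes was enriched over input in both replicates of THP1, and RNA of 5 of them in both replicates of MOLM13 as well, under the gene's own name. Of all gene names in the tables, 72.8% had a peak in both replicates of THP1 and 62.4% in both of MOLM13. Of the 38 sites, 14 were found in all 4 libraries, or 36.8%, against 33.1% of all sites in the tables. In MOLM13, 15 sites were found in both replicates and in THP1 22. Only 1 input library is labelled for THP1, and if both THP1 replicates were set against it, their folds over input are not independent. At a log2 threshold of 4 over input the THP1 count was 13. Among all sites of each line, 62.7% in MOLM13 and 65.7% in THP1 were found in both replicates. The MOLM13 count rises to 24 sites when replicate 2 is left out and replicate 1 is taken alone. JMJD1C, the longest of the genes, held 18 of the sites, SATB1 and DOT1L 5 each, NSD2 and KMT2A 4 each and BMI1 2. Of the 38 sites, another 14 were found in 1 library only, and the matching share over all sites is not given here. The share of the members' peaks annotated as 3' UTR was 36.7% and 31.2% for MOLM13 and 29.7% and 19.5% for THP1, against 20.2%, 22.8%, 16.1% and 16.7% of all peaks in the 4 libraries. Touching peaks of 1 site are counted separately in these shares, such as 4 at NSD2 site 3 in THP1 replicate 1. They are not separate observations, so no enrichment in 3' UTRs is read from the shares.

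**Figure D1:**
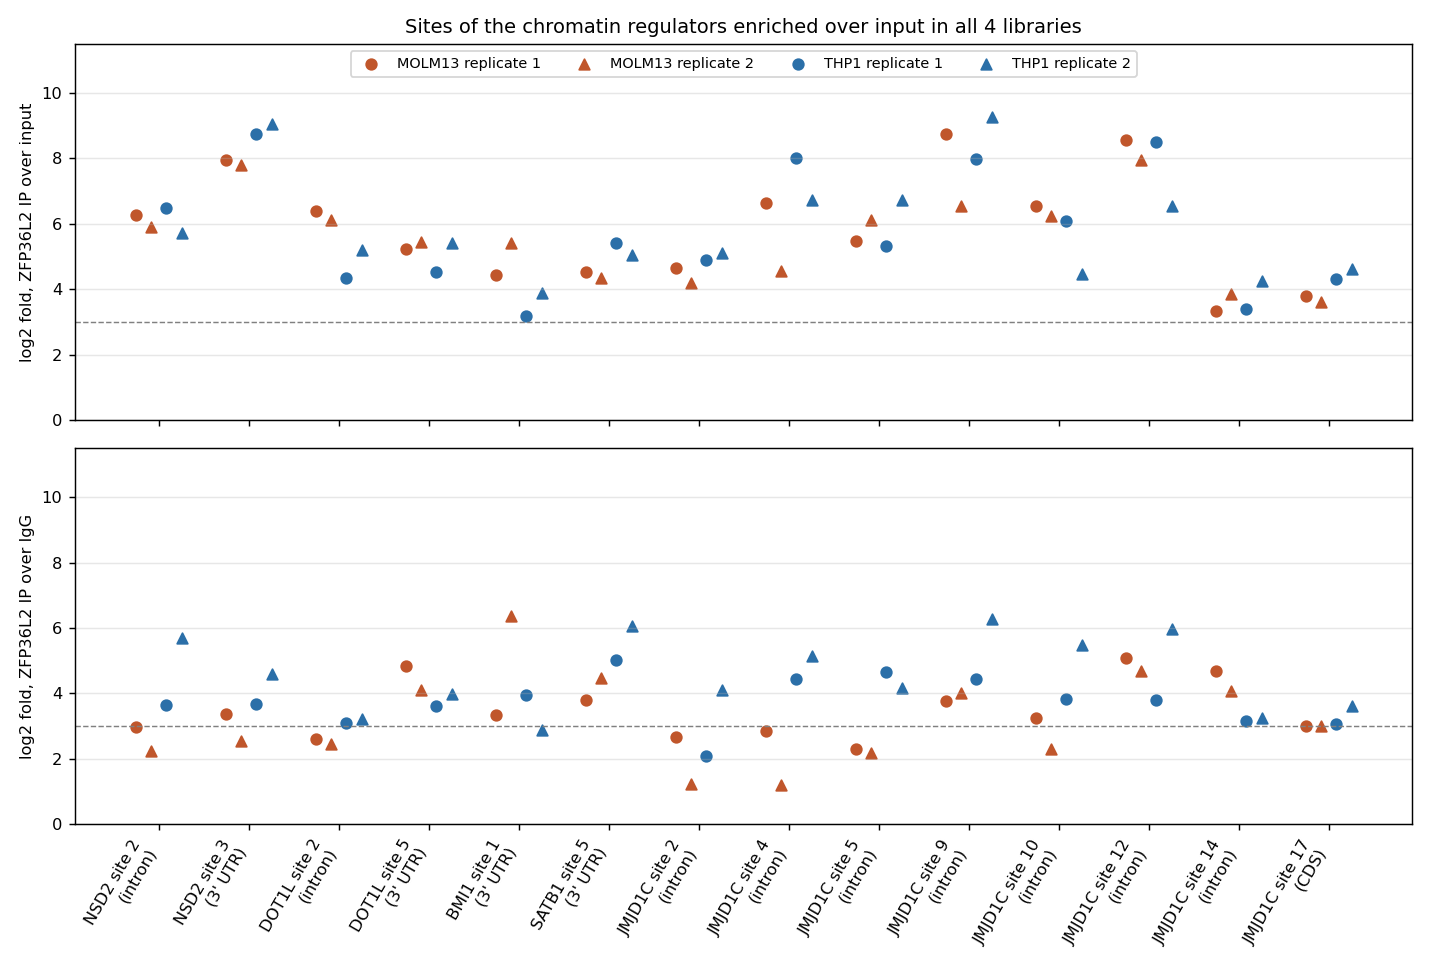
Log2 fold of the ZFP36L2 immunoprecipitate over input (top) and over IgG (bottom) at the 14 sites found in all 4 libraries, with 1 point per library and the threshold of 3 as a dashed line. NSD2 site 3 and JMJD1C sites 4, 9 and 12 reach above 8 over input in at least 1 library, while over IgG NSD2 site 3 lies below 3 in MOLM13 replicate 2.

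By log2 fold over input, NSD2 carried the strongest 3' UTR site of the 6 genes. Over IgG, site 5 of SATB1, described below, had a higher fold than this site in each library. The gene lies on the plus strand of chromosome 4, from 1871393 to 1982192 in RefSeq, and is listed as ENSG00000109685.17. Site 3, at chromosome 4, 1946235 to 1946350, is annotated as 3' UTR in every library although it ends 35.8 kb before the 3' end of the gene. NSD2 has, besides the full-length mRNA, a shorter one that ends upstream and lacks the catalytic SET domain. Which of them was bound cannot be read from the peak tables.

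At site 3 the log2 fold over input was 7.95 and 7.81 in MOLM13 replicates 1 and 2, a mean of 7.88 ± 0.093 (SD, n = 2). In THP1 replicates 1 and 2 it was 8.74 and 9.05, a mean of 8.89 ± 0.22 (SD, n = 2). The −log10 p was 76.4 and 79.0 in MOLM13 and 149 and 175 in THP1. Both THP1 values lay above both MOLM13 values, and the replicates of each line lay close together. Among genes with a listed 3' UTR peak, NSD2 ranked 9 of 1903 and 16 of 1842 in the MOLM13 replicates, and 6 of 1923 and 2 of 1896 in the THP1 replicates.

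Over IgG, site 3 of NSD2 reached 3.38 and 2.55 in MOLM13, with 3.68 and 4.59 in THP1. Of input peaks annotated as 3' UTR, 59.0% and 49.7% passed over IgG in MOLM13 replicates 1 and 2 and 54.6% and 65.1% in THP1 replicates 1 and 2. The NSD2 site passed in 3 of the 4 libraries and missed in MOLM13 replicate 2.

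The other NSD2 site of all libraries was intronic, at chromosome 4, 1902224 to 1902315, which is 30.8 kb from the 5' end. Its log2 fold over input was 6.28 and 5.91 in MOLM13, with 6.47 and 5.71 in THP1, so that the lines overlapped. Over IgG it was 2.98 and 2.23 in MOLM13, with 3.64 and 5.71 in THP1, below the threshold in both MOLM13 libraries and above it in both THP1 libraries. Close to the end of the gene, the 3' UTR site at 1981048 to 1981156 was listed in MOLM13 replicate 1 alone, with 3.23 over input but 2.83 over IgG. A site in the 5' UTR at 1887489 to 1887534 was listed in THP1 replicate 2 alone, with 3.84 over input but 2.84 over IgG.

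Within the stretch of 93.7 kb between the outermost NSD2 peaks, the 4 libraries held 23, 30, 18 and 18 clusters on the same strand. Those enriched over IgG numbered 2 and 0 in MOLM13 and 6 and 5 in THP1. All of them were peaks over input as well, and all lay at sites 2 and 3. Over all clusters, 5.11% and 2.49% in MOLM13 and 5.74% and 8.36% in THP1 were enriched over IgG.

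DOT1L was bound at both ends of the gene. It lies on the plus strand of chromosome 19, from 2163933 to 2232578, and is listed as ENSG00000104885.17. Its 3' UTR site 5, at chromosome 19, 2232241 to 2232360, ends 0.218 kb before the 3' end. The log2 fold over input there was 5.24 and 5.45 in MOLM13, against 4.52 and 5.41 in THP1, and the lines overlapped. Over IgG it was 4.84 and 4.09 in MOLM13, with 3.60 and 3.99 in THP1. This site was enriched over both controls in all 4 libraries.

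The intronic site 2 of DOT1L, at chromosome 19, 2166395 to 2166488, lies 2.46 kb from the 5' end. Its log2 fold over input was 6.39 and 6.11 in MOLM13, with 4.35 and 5.21 in THP1. MOLM13 was the higher line in both replicates, and in it the intronic site exceeded the 3' UTR site. Over IgG the order of the sites turned round in MOLM13, with 2.6 and 2.44 at the intronic site, under the threshold. THP1 had 3.11 and 3.21 over IgG there, just above the threshold. Of input peaks in distal introns, 40.6% and 19.9% passed over IgG in the MOLM13 replicates and 41.5% and 59.1% in the THP1 replicates.

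The other 3 DOT1L sites were each listed in 1 library of MOLM13. They comprised 3' UTR sites at 2230722 to 2230826 and at 2230931 to 2230955 in replicate 1, at 3.80 and 3.77 over input, and an intronic site at 2165424 to 2165539 in replicate 2, with 3.15. Their folds over IgG were 2.23, 1.20 and 0.47, all below the threshold. Clusters covered all 3 positions in each of the other libraries without being listed over input.

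KMT2A, the gene rearranged in both lines, had no row of its own in MOLM13. It lies on the plus strand of chromosome 11, from 118436492 to 118526832, and is listed as ENSG00000118058.21. In THP1 there were 4 sites, 2 of them in both replicates. At the intronic site 1, chromosome 11, 118493666 to 118493780, the log2 fold over input was 5.01 and 4.02. At site 2, 118495114 to 118495236, it was 4.01 and 3.77. They lie 57.2 and 58.6 kb from the 5' end of the gene. Over IgG the values were 2.77 and 2.02 at site 1 and 2.77 in each replicate at site 2, so neither site passed.

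The pair of KMT2A 3' UTR sites appeared in THP1 replicate 2 alone. The peak at 118523129 to 118523236 had 3.70 against each control and passed both controls. The peak at 118523585 to 118523642 had 3.90 over input but 2.90 over IgG. The peaks do not tell which KMT2A allele a fragment came from. In MOLM13, clusters were called at sites 1 and 4 in both replicates and at sites 2 and 3 in replicate 2, with folds over IgG between 0.65 and 1.70.

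A second set of rows names KMT2A together with AP001267.5, and equality of the name leaves these out. There were 3 and 4 such peaks in the MOLM13 replicates and 8 and 6 in the THP1 replicates, 21 in all, and they made 5 sites. All 5 are intronic and lie in the 5' part of KMT2A, between 18.7 and 26.3 kb from its 5' end. One of them, at chromosome 11, 118461926 to 118462040, was found in all 4 libraries, at 5.49 and 4.80 over input in MOLM13 libraries and at 5.61 and 5.16 in THP1. Over IgG it had 2.51 and 1.86 in MOLM13, with 4.37 and 4.16 in THP1. Both MOLM13 replicates thus had a peak over input inside KMT2A, but RNA of KMT2A and of AP001267.5 cannot be told apart there. With the shared rows counted, 16 sites in MOLM13 and 26 in THP1 were found in both replicates, and 15 in all 4 libraries.

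**Figure D2:**
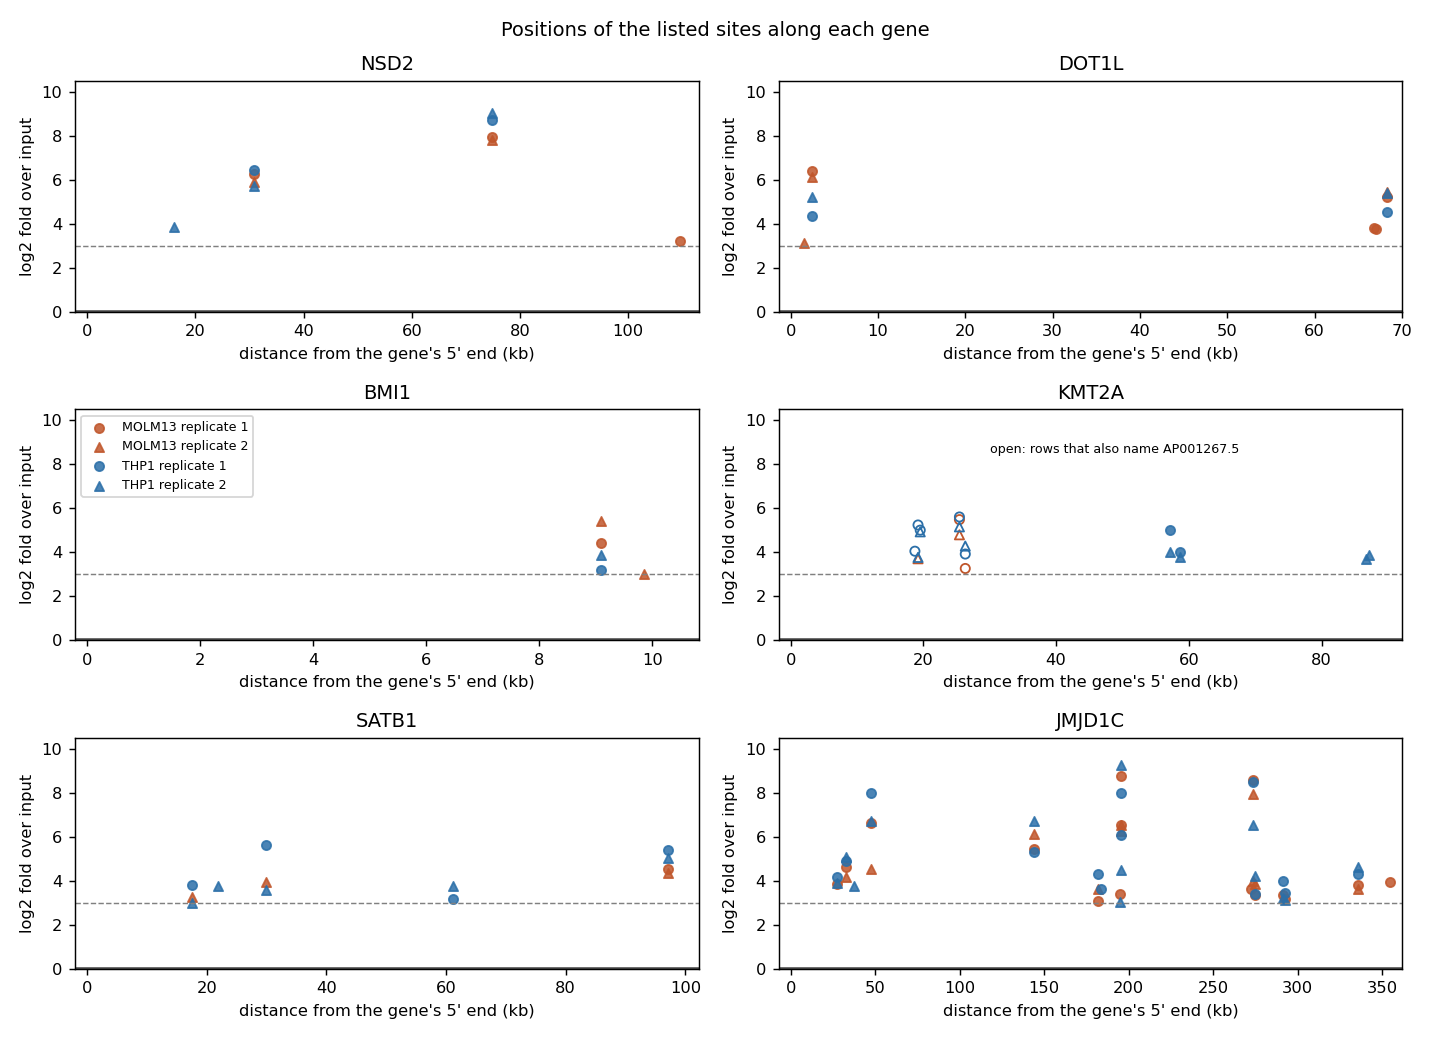
Log2 fold over input of each listed site against its distance in kb from the 5' end of the RefSeq gene, 1 panel per gene and 1 point per library, with the threshold of 3 dashed. BMI1 sites lie at the 3' end, DOT1L sites at both ends, and JMJD1C sites along the gene, while the open KMT2A points are the rows that also name AP001267.5.

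All listed peaks of BMI1 lay in its 3' UTR. The gene lies on the plus strand of chromosome 10, from 22321099 to 22331706, and is listed as ENSG00000168283.13. Site 1, at chromosome 10, 22330185 to 22330386, was found in all 4 libraries. The log2 fold over input was 4.45 and 5.41 in MOLM13, against 3.19 and 3.88 in THP1. Both MOLM13 values lay above both THP1 values. Over IgG the values were 3.33 and 6.37 in MOLM13, with 3.95 and 2.88 in THP1. The MOLM13 replicates thus differed by 3.05 over IgG, the widest replicate gap over IgG among the sites found in both replicates of a line, and THP1 replicate 2 missed the threshold. The second site, at 22330955 to 22331025, was listed in MOLM13 replicate 2 alone, with 3.02 over input but 1.35 over IgG.

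SATB1 had 1 site in all libraries, 2.98 kb before the 3' end of the gene. The gene lies on the minus strand of chromosome 3, from 18345377 to 18445592, and is listed as ENSG00000182568.16. Site 5, at chromosome 3, 18348354 to 18348543, had folds over input (log2) of 4.53 and 4.34 in MOLM13, against 5.40 and 5.06 in THP1. Both THP1 values exceeded both MOLM13 values. Over IgG it had 3.78 and 4.47 in MOLM13, with 5.01 and 6.06 in THP1, so that it passed in all 4 libraries, and in replicate 2 of each line the fold over IgG exceeded that over input. Touching peaks of this site carried different annotations, some 3' UTR and some intron of a noncoding transcript, so that a count of SATB1 3' UTR peaks depends on which transcript the authors' annotation chose.

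The other SATB1 sites lay upstream, and each was listed in THP1. Sites 1, 3 and 4, all intronic, were listed in both THP1 replicates. Site 3, at 18415510 to 18415668, had 5.64 and 3.60 over input in THP1, a gap of 2.04 between replicates, and 3.93 in MOLM13 replicate 2. Over IgG it had 2.81 and 3.18 in THP1 and 3.57 in MOLM13 replicate 2. Sites 1 and 4 had between 3.0 and 3.83 over input in THP1 and between 2.51 and 2.77 over IgG, below the threshold. A 5' UTR site at 18423622 to 18423654 was listed in THP1 replicate 2 alone with 3.77 over input. No cluster of the IgG list had exactly its coordinates, but a cluster overlapping it in that library had 2.77 over IgG, below the threshold. Clusters were present at all 5 sites in MOLM13 replicate 1, where site 5 alone was listed over input.

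JMJD1C carried most of its sites in introns. The gene lies on the minus strand of chromosome 10, from 63167225 to 63521890, and is listed as ENSG00000171988.18. Of its 18 sites, 8 were found in all 4 libraries, 7 of them intronic and 1 in coding sequence. By its highest peak, JMJD1C ranked 47 of 4994 genes and 139 of 4767 in the MOLM13 replicates and 118 of 5674 and 34 of 5505 in the THP1 replicates, above NSD2 in MOLM13 and in THP1 replicate 2. The only 3' UTR site, at chromosome 10, 63167361 to 63167460, was listed in MOLM13 replicate 1 alone, with 3.96 over input, and passed over IgG with 3.56.

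Site 12, at chromosome 10, 63248472 to 63248588, had folds over input (log2) of 8.58 and 7.95 in MOLM13, with 8.49 and 6.54 in THP1. In both MOLM13 replicates its −log10 p over input stood at the cap of 400, which no other site of the 6 genes reached. Over IgG it had 5.09 and 4.69 in MOLM13, with 3.79 and 5.96 in THP1. Site 9, at 63326319 to 63326395, had 8.75 and 6.55 over input in MOLM13, with 7.99 and 9.27 in THP1. Its folds over IgG were 3.77 and 4.02 in MOLM13, with 4.43 and 6.26 in THP1. Sites 9 and 12 thus passed over both controls in all 4 libraries, and at both the lines overlapped.

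Next to site 9 lay site 10, at 63326153 to 63326218. It had 6.55 and 6.25 over input in MOLM13, with 6.07 and 4.48 in THP1. Over IgG it had 3.25 and 2.31 in MOLM13, with 3.83 and 5.47 in THP1. Site 5, at 63377830 to 63377935, had 5.46 and 6.11 over input in MOLM13, with 5.32 and 6.74 in THP1. Over IgG it had 2.31 and 2.17 in MOLM13, with 4.66 and 4.15 in THP1, below the threshold in one line and above it in the other. Site 4, at 63474029 to 63474153, had the same pattern over IgG. It had 2.85 and 1.19 in MOLM13, against 4.45 and 5.14 in THP1. Its folds over input were 6.64 and 4.55 in MOLM13, with 8.01 and 6.73 in THP1, where both THP1 values were the higher.

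Site 2 of JMJD1C, at 63489348 to 63489419, had 4.64 and 4.18 over input in MOLM13, with 4.90 and 5.11 in THP1. It passed over IgG in THP1 replicate 2 alone, with 4.10, against 2.07 in THP1 replicate 1 and 2.65 and 1.24 in MOLM13. The site in coding sequence, site 17 at 63186306 to 63186421, had 3.80 and 3.62 over input in MOLM13, with 4.30 and 4.63 in THP1. It passed over IgG in all 4 libraries with 3.01 in each MOLM13 replicate and 3.06 and 3.62 in THP1, values at or little above the threshold. Site 14, at 63247169 to 63247261, had 3.34 and 3.84 over input in MOLM13, with 3.38 and 4.24 in THP1, and passed over IgG in MOLM13, with 4.68 and 4.07, but not in THP1. In THP1 its fold over IgG was 3.14 and 3.23 but its −log10 p was 2.35 and 2.34.

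The remaining 9 JMJD1C sites were intronic and found in 1 to 3 libraries, with log2 folds over input between 3.02 and 4.32. Site 15, at 63230721 to 63230787, was the one among them enriched over IgG in both replicates of a line. It had 3.99 and 3.22 over input in THP1 and 3.75 and 3.80 over IgG, and in MOLM13 it was listed in replicate 1 alone, with 3.34 over input but 2.35 over IgG. Site 6 was found in both MOLM13 replicates and sites 1 and 16 in both THP1 replicates, and these missed the IgG threshold in at least 1 of them.

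Fewer sites held against both controls. Of the sites found in both replicates over input, 7 of 15 in MOLM13 and 12 of 22 in THP1 were enriched over IgG in both replicates. At a log2 threshold of 2 over IgG the MOLM13 count was 12. At the threshold of 3, among all such sites, 24.6% in MOLM13 and 42.6% in THP1 were. Replicate 1 of MOLM13 alone had 11 sites past both controls, so its replicate 2 decides part of the MOLM13 count. By region, 3 of 4 sites with a 3' UTR annotation passed in MOLM13 and 3 of 4 in THP1, against 3 of 10 intronic sites in MOLM13 and 8 of 17 in THP1. NSD2 was the 3' UTR site that missed in MOLM13 and BMI1 the one that missed in THP1. Taken over every cluster of a library, the median log2 fold over IgG ran from −0.60 in MOLM13 replicate 2 to 0.38 in THP1 replicate 2. With each library's median subtracted, 7 sites in MOLM13 and 11 in THP1 passed in both replicates. Of single peaks, 15 of 30 and 16 of 32 passed over IgG in MOLM13, where 45.0% and 28.1% of all input peaks did. In THP1 24 of 37 and 28 of 41 passed, where 43.2% and 59.1% of all input peaks did. Touching peaks of 1 site are counted separately in these counts of single peaks.

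**Figure D3:**
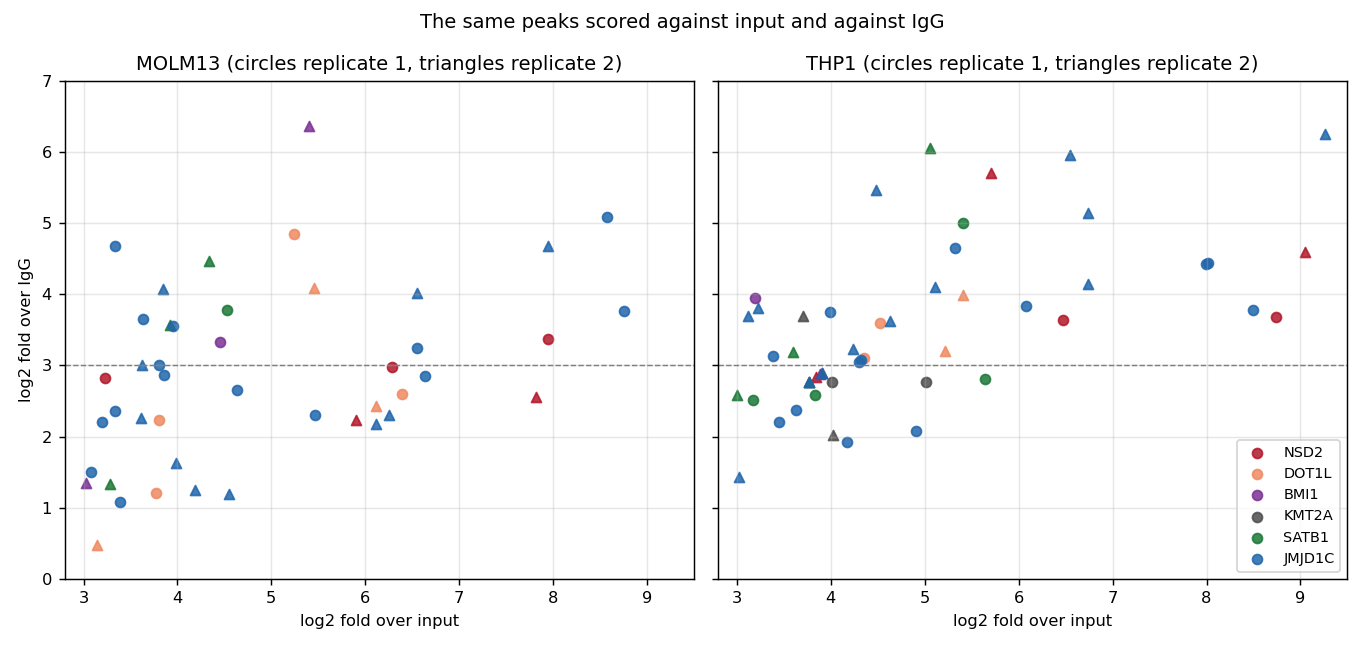
Log2 fold over input (x axis) and over IgG (y axis) of the highest peak of every listed site with an IgG value, in MOLM13 (left) and THP1 (right). Points are coloured by gene, and the IgG threshold of 3 is dashed. The SATB1 5' UTR site is left out, as it has no IgG value at its exact coordinates. NSD2 points reach far right while lying between 2.23 and 3.38 over IgG at its 2 main sites in MOLM13, and BMI1 in MOLM13 replicate 2 has the highest fold over IgG, 6.37, at 5.41 over input.

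The replicates of a line differed by a median of 0.46 in log2 fold over input across 15 sites in MOLM13 and 0.80 across 22 sites in THP1. Over IgG the medians were 0.75 and 0.72. In THP1, 4 of 22 sites were higher over IgG in replicate 1, while in MOLM13 11 of 15 were. Sites of 1 gene come from the same libraries and are not replicates.

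At the sites of these genes, absence of a listed peak seldom meant absence of a cluster. Of 152 pairs of a site and a library, 56 had no listed peak, and in 50 of these a cluster was called at the site. The matching share over all sites is not given here, so this count is not particular to these genes. The tables over input do not print values under the threshold, so how far such clusters lay below it was not measured here.

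Within the spans of the 6 genes, 16 of 348 clusters were enriched over IgG in MOLM13 replicate 1 and 17 of 401 in replicate 2, or 4.60% and 4.24%. In THP1 24 of 280 and 30 of 273 were, or 8.57% and 11%. The shares of all clusters given above lay between 2.49% and 8.36%, and the span of a member is set by its own peaks. Over input, 8.62% and 7.98% of the clusters in these spans were listed in MOLM13 and 13.2% and 15% in THP1, against 10.3%, 7.9%, 12.6% and 13.1% of all clusters in the 4 libraries. The members' share of clusters over input was thus close to that of all clusters in each library. The 95% Wilson intervals of the IgG shares, which cover counting error only, were 2.85 to 7.34% and 2.66 to 6.68% in MOLM13, and 5.83 to 12.4% and 7.81 to 15.3% in THP1.

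**Figure D4:**
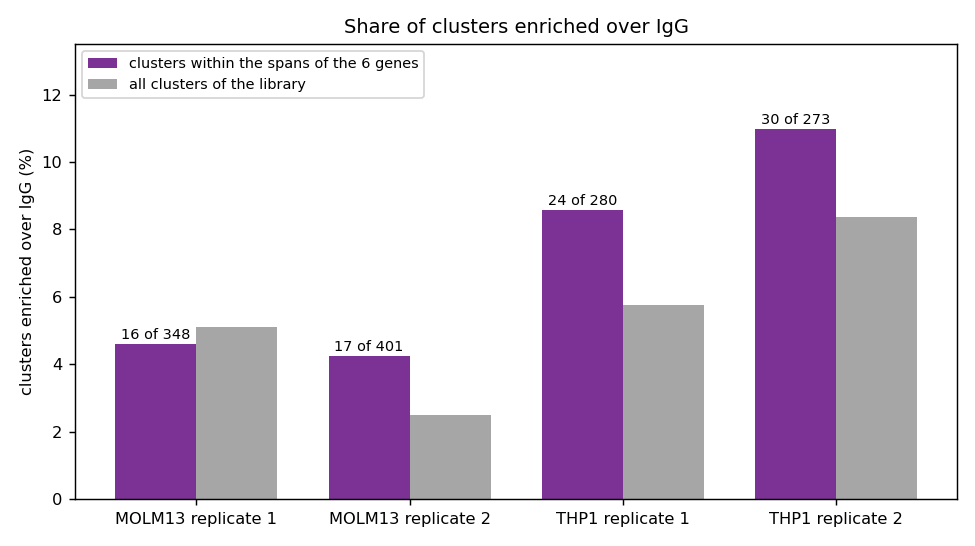
Percentage of clusters enriched over IgG within the spans of the 6 genes (purple, with counts) and among all clusters of the library (grey). The spans hold 4.60% and 4.24% in MOLM13 and 8.57% and 11% in THP1, below the share of all clusters in MOLM13 replicate 1 and above it in the other 3 libraries.

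The genes whose highest log2 folds over input were most like those of a member were found by the largest difference over the 4 libraries, among 3740 other genes with a peak in all of them. NSD2 was closest to CNST, CHD9 and PTPN11, with largest differences of 0.31, 0.34 and 0.36. DOT1L was closest to CPQ (0.13), AKR1A1 (0.13) and COLGALT1 (0.29), and BMI1 to CDC25A (0.26), NGLY1 (0.34) and JUND (0.41). SATB1 was closest to CARF (0.080), LIN54 (0.16) and EPC2 (0.17). JMJD1C was closest to PWWP2A (0.27), to the methyltransferase gene EHMT1 (0.28) and to NEU3 (0.42). KMT2A, without a row of its own in MOLM13, was not compared.

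Among 128 other chromatin genes in 8 lists, 95 were named in a table, 79 had a peak over input in all 4 libraries and 27 had a 3' UTR peak in all 4. These are 83.2% and 28.4% of the named list genes, against 54.4% and 15.1% of all gene names in the tables. Genes were listed for their function and their length and expression were not matched, so the shares are a description. The counts for each list below are of its genes named in a table, and the values of its named genes are log2 folds of 3' UTR peaks unless another region is given.

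The partners of KMT2A in fusions and their elongation complexes held 12 named genes, 8 with a peak in all 4 libraries and 3 with a 3' UTR peak in all 4. AFF4, a scaffold of the super elongation complex, had 3' UTR folds over input of 4.03 and 4.47 in MOLM13, with 4.12 and 4.30 in THP1. CDK9, its kinase, had 4.67 and 4.13 in MOLM13, with 4.62 and 3.99 in THP1. Both exceeded 3 over IgG in all 4 libraries. AFF1 had 3.29 and 4.15 in MOLM13, with 4.17 and 3.22 in THP1 over input, and between 1.21 and 2.22 over IgG. MLLT3, singled out after its values were seen because it is a frequent partner of KMT2A, had a 3' UTR peak in both MOLM13 replicates, at 3.38 and 3.48 over input. Over IgG the same peaks had 3.40 and 3.13. The −log10 p over IgG was 2.66 and 2.29, which misses the threshold. No 3' UTR peak of MLLT3 was listed in THP1.

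Of the KMT2 complexes, 7 of 9 named genes had a peak in all 4 libraries and 4 a 3' UTR peak in all 4. KMT2D, a paralogue of KMT2A, had 3' UTR folds over input of 5.99 and 5.95 in MOLM13, with 6.94 and 6.35 in THP1. KMT2B had 5.50 and 5.62 in MOLM13, with 5.46 and 5.03 in THP1. SETD1B had 6.02 and 3.72 in MOLM13, with 4.33 and 5.79 in THP1. Each of these exceeded 3 over IgG in every library. They were named for having a 3' UTR peak in every library, so no contrast with KMT2A is drawn from them.

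Of the list of histone H3 lysine 36 and other lysine methyltransferase genes, 7 were named, all with a peak in all 4 libraries and none with a 3' UTR peak in all 4. By their highest peaks in any region, EHMT1 had 8.58 and 8.23 over input in MOLM13, with 8.22 and 8.98 in THP1. ASH1L had 7.90 and 8.56 in MOLM13, with 9.60 and 8.55 in THP1, and SMYD3 had 7.23 and 7.22 in MOLM13, with 8.61 and 7.29 in THP1. Over IgG the fold of EHMT1 and of ASH1L exceeded 3 in all 4 libraries, while SMYD3 had 2.54 in MOLM13 replicate 2. No test of NSD2 against this list was made.

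Of 13 named Polycomb genes, 12 had a peak in all 4 libraries and 3 had a 3' UTR peak in all 4. JARID2, a cofactor of Polycomb repressive complex 2, had 3' UTR folds over input of 7.13 and 5.78 in MOLM13, with 5.83 and 7.20 in THP1. RYBP, of Polycomb repressive complex 1 like BMI1, had between 4.61 and 4.83 in its 3' UTR over the libraries. Over IgG both 3' UTR peaks exceeded 3 in all 4 libraries, which the BMI1 site did in 3.

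Of 16 named histone demethylase genes, not all of them of the JmjC family, 14 had a peak in all 4 libraries and 5 had a 3' UTR peak in all 4. KDM6B, a histone H3 lysine 27 demethylase, had 3' UTR folds over input of 4.64 and 4.25 in MOLM13, with 4.59 and 5.67 in THP1. In the 3' UTR KDM5B ranged from 4.18 to 5.16 over input and KDM4B from 4.03 to 4.79. KDM5B exceeded 3 over IgG in all 4 libraries, but KDM6B had 2.65 in MOLM13 replicate 1 and KDM4B 2.79 in THP1 replicate 1. The lists of acetylation and bromodomain genes, of DNA methylation genes and of remodellers held 9 of 11, 7 of 10 and 15 of 17 named genes with a peak in all 4 libraries. For 3' UTR peaks in all 4 the counts were 2, 3 and 7. CREBBP, an acetyltransferase, had 3' UTR folds over input of 6.30 and 4.97 in MOLM13, with 5.49 and 4.97 in THP1, and HDAC2 ranged from 3.43 to 4.91. In the 3' UTR, BCORL1, TET3 and PHF6 ranged from 3.05 to 5.47 over input, and the cohesin genes STAG2 and RAD21 with the remodeller gene ARID1A from 4.16 to 5.13. Over IgG these 3' UTR peaks of CREBBP, STAG2 and RAD21 exceeded 3 in all 4 libraries. HDAC2 had 2.70 and ARID1A 2.90 in THP1 replicate 1, their only values below 3. BCORL1 was as low as 2.01, TET3 as low as 2.02 and PHF6 as low as 2.49, each of them below 3 in 2 of the 4 libraries.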

How the data were processed

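The deposited files hold comparisons the authors made for each immunoprecipitate by itself. Per the file headers and values, the log2 fold and the −log10 p of each peak over input, with gene and region, come from 4 deposited tables, and the log2 fold and −log10 p of every cluster over IgG from 4 deposited lists. Per the submitters' processing notes, cutadapt 1.14, STAR 2.5.0c, Picard 2.6.0 and edgeR were used and the builds hg19, GRCh37 and hg38 are named. Neither the peak caller nor any read depth is given in the sources used. Of 6881 names, 6261 matched RefSeq (GRCh38.p14), and 98.3% of their peaks lay inside that gene, so positions are hg38.

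The members, lists and rules were chosen with earlier results of these data known. Input tables and IgG lists were joined by identical coordinates with pandas 2.3.3 in Python 3.11.15. The joining of peaks into sites was tested on simulated data. Named were the 6 genes, up to 6 sites per gene found in all libraries and every 3' UTR site in both replicates of a line, 3 genes per list by lowest fold, and the 3 most alike genes. Some results under these rules are not reported here. Other sites and MLLT3 were described after their values were seen. No tests were run. Stricter thresholds, other joining distances, another IgG rule and leaving out replicates were tried. THP1 lists over IgG carry other numbers than the replicates and were tied to them by identical cluster coordinates. No genome was used here, so the planned motif search was not run and site sequences were not analysed here.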

Additional observations from a re-analysis of the deposited data

How the results depend on the processing

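Counts of sites, shares and highest folds were recomputed under 70 alternatives of 20 results. Of these alternatives, 60 stayed within 1.5 times a count, 1 SD of a mean or the 95% Wilson interval of a share. With n = 2 a single replicate always lies within 1 SD of the mean, so leaving out a replicate could not move a mean. Where the highest peak is itself in the 3' UTR, restriction to such peaks changed nothing. The 60 is therefore no measure of stability. At a threshold of 4 for the log2 fold over input, THP1 sites in both replicates numbered 13 in place of 22. With 1 replicate left out they ranged from 20 to 24 in MOLM13 and from 24 to 28 in THP1, and sites in all remaining libraries from 14 to 17. Sites also past IgG ranged from 8 to 11 in MOLM13 and from 13 to 16 in THP1 with 1 replicate left out, and MOLM13 reached 12 at a log2 threshold of 2 or of 1 over IgG. At a log2 threshold of 2 the share of span clusters past IgG was 8.62% and 7.48% in MOLM13. Restricted to 3' UTR peaks, the mean highest log2 fold over input was 5.35 for DOT1L in MOLM13 and 4.15 and 4.84 for SATB1 in MOLM13 and THP1. For JMJD1C and KMT2A this gave no value. The counting of shared-name rows and of any peak of a site over IgG was added after the data were seen. No paired analysis was possible because the values used are the authors' comparisons of each immunoprecipitate with input or with IgG. Whether both THP1 replicates were set against the same input is not stated, and no fit across samples was made. Depth per library is unknown, and intervals cover counting error only.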

Other observations

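Within the spans of the 6 genes, 4 clusters passed the IgG thresholds without being listed over input, and all were on SATB1. One overlapped the 3' UTR site in MOLM13 replicate 1, at chromosome 3, 18348345 to 18348408, with a log2 fold over IgG of 3.29. Another pair overlapped each other just upstream, at 18348745 to 18348822 in MOLM13 replicate 2 with 3.06 and at 18348744 to 18348812 in THP1 replicate 2 with 3.67. The last lay further upstream, at 18417093 to 18417197 in THP1 replicate 2, with 3.70.

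Different peaks often carried identical values. In THP1 replicate 2, the second KMT2A site, the SATB1 5' UTR site and an intronic JMJD1C site all had a log2 fold of 3.77 and a −log10 p of 3.51, equal in every digit, and 377 peaks of that library shared this pair. Of the members' peaks, 22 of 30 and 22 of 32 in MOLM13 and 29 of 37 and 36 of 41 in THP1 shared their pair with another peak of the library, against 88.8%, 86.2%, 89.5% and 89.6% of all peaks in the 4 libraries.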
